A study of Canis lupus familiaris with 6 samples.

Results

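Genes of mitosis and of the passage from G2 into M phase were followed in canine melanoma cells with and without a podoplanin knockout (KO). The set was named by gene symbol and holds 45 genes. Measured values were not used to pick them, but earlier results of these data were known when they were chosen. Of these, 41 are listed under their symbol in the deposited tables, each in 1 row, among 18011 rows with a symbol and 30951 rows in all. All 41 had enough counts to be tested, with 96 counts or more in every library. CCNB1, MAD2L1, BIRC5 and PTTG1 were not analysed here. The cells were CMM12 podoplanin KO lines 1 and 2, the CMM12 control (genotype WT), CMM2 podoplanin KO lines 1 and 2, and the CMM2 control (WT), with 1 RNA-seq library each. All came from the cell type labelled canine melanoma. The labels do not say how podoplanin was disrupted, whether a KO line is a single clone, or whether the libraries came from separate cultures, and p-values therefore reflect the spread of these libraries alone, which may be technical. Podoplanin is a glycoprotein of the cell surface, found on lymphatic endothelium and on many tumour cells.

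Entry into mitosis is driven by CDK1 bound to cyclin A or B, once CDC25 phosphatases remove its inhibitory phosphates. Polo-like and Aurora kinases then build the spindle, kinetochores attach chromosomes to it, and the checkpoint proteins BUB1, BUBR1, BUB3, MAD2 and MPS1 hold the anaphase-promoting complex until attachment is complete. That complex, with CDC20 and the ubiquitin-conjugating enzyme UBE2C, destroys securin and the cyclins, after which the cell divides. Transcripts of these genes peak late in the cell cycle under FOXM1, B-MYB and the DREAM complex, and are used in tumours as a measure of proliferation.

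The libraries held 9732927 to 11807835 estimated counts, of which the 41 genes took 0.838% to 0.990%. A level is given in CPM, the count scaled to library size after edgeR's TMM correction, in which 3 counts correspond to 0.259 to 0.294 CPM. Podoplanin itself (PDPN) had 15.2 and 9.98 CPM in CMM12 KO 1 and 2, against 87.8 CPM in the CMM12 control. It had 5.59 and 5.58 CPM in CMM2 KO 1 and 2, against 20.2 CPM in the CMM2 control. The 8 melanocyte markers summed to 20.5 to 33.1 CPM. Of these, MITF stood at 15.4 to 28.4 CPM and DCT was at 0 everywhere. SOX10, TYR, MLANA and S100B had at most 0.0979 CPM in any library. Leukocyte markers summed to 1.61 to 6.07 CPM with PTPRC and CD3E at 0. Endothelial markers summed to 5.65 to 15.4 CPM, and epithelial markers to at most 6.47 CPM. Fibroblast markers varied most, by their collagen genes, and summed to 3170 and 4828 CPM in the CMM12 KO lines and 7843 CPM in the CMM12 control, and to 3271 and 11163 CPM in the CMM2 KO lines and 1453 CPM in the CMM2 control. Their part in the results below was not tested.

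The mitotic genes were abundant in all 6 libraries. Mean levels ran from 13.6 CPM for CDC25C to 898 CPM for TOP2A, the DNA topoisomerase that untangles sister chromatids. Per transcript length, in TPM (transcript abundance corrected for length, as deposited), UBE2C had the highest mean over the 6 libraries, with 575, 791 and 665 TPM in CMM12 KO 1, KO 2 and control and 289, 292 and 357 TPM in CMM2 KO 1, KO 2 and control. CDC20, the activator of the anaphase-promoting complex, followed by mean at 235 to 533 TPM, and the cytokinesis scaffold ANLN at 190.4 to 297 TPM. In CMM2 KO 1 both CDC20 (328 TPM) and ANLN (297 TPM) were above UBE2C. Within a line UBE2C varied less in counts than in TPM. It had 149.6, 165 and 147 CPM in CMM12 KO 1, KO 2 and control. In CMM2 KO 1, KO 2 and control it had 87.8, 86.6 and 88.9 CPM. The lowest levels per length were those of CDC25C (5.15 to 11.8 TPM) and the checkpoint kinase TTK, also called MPS1 (13.3 to 22.6 TPM). The order of the 41 genes by TPM was similar among libraries of 1 line (Spearman's rho across genes 0.945 to 0.975) and less so between lines (0.735 to 0.809). These are descriptions across genes, which are not replicates.

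The steadiest members across all 6 libraries were RACGAP1, a subunit of centralspindlin, at 255 to 316 CPM, and SMC4, a condensin ATPase, at 289 to 360.5 CPM. The highest library was 1.24-fold above the lowest for RACGAP1 and 1.25-fold for SMC4. The median of this ratio over members was 1.77, and 10 members reached 2. Within the 3 libraries of a line its median was 1.26 in both CMM12 and CMM2, and CENPF in CMM12 was the member that reached 2. A range over 6 libraries is wider by construction than one over 3, so these ratios are descriptions.

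The comparison of CMM12 with CMM2, with genotype as a further term, asked how the 2 lines differ at equal genotype. It called 14 of the 41 members at a Benjamini-Hochberg adjusted p under 0.05 by edgeR's quasi-likelihood test, 9 higher and 5 lower in CMM12. That is 34.1% of the members, where 25.8% of the 12270 genes tested were called, 14.6% higher and 11.2% lower. The genes did not shift together, since the median log2 fold change of the members was −0.04, beside 0.04 over all genes tested. DESeq2 called 10 members higher and 5 lower, where it called 32.2% of all genes, 17.7% higher and 14.5% lower. In 10 members (24.4%) all 3 CMM12 libraries lay above all 3 CMM2 libraries, beside 24.6% of all genes. In 12 (29.3%) all lay below, beside 21.5% of all genes. All 14 called members were among these 22. Calls and overlap were read from the same libraries, so this is no separate support for the calls. In these bulk libraries a larger share of cells in mitosis and more transcript per mitotic cell cannot be told apart.

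**Figure D1:**
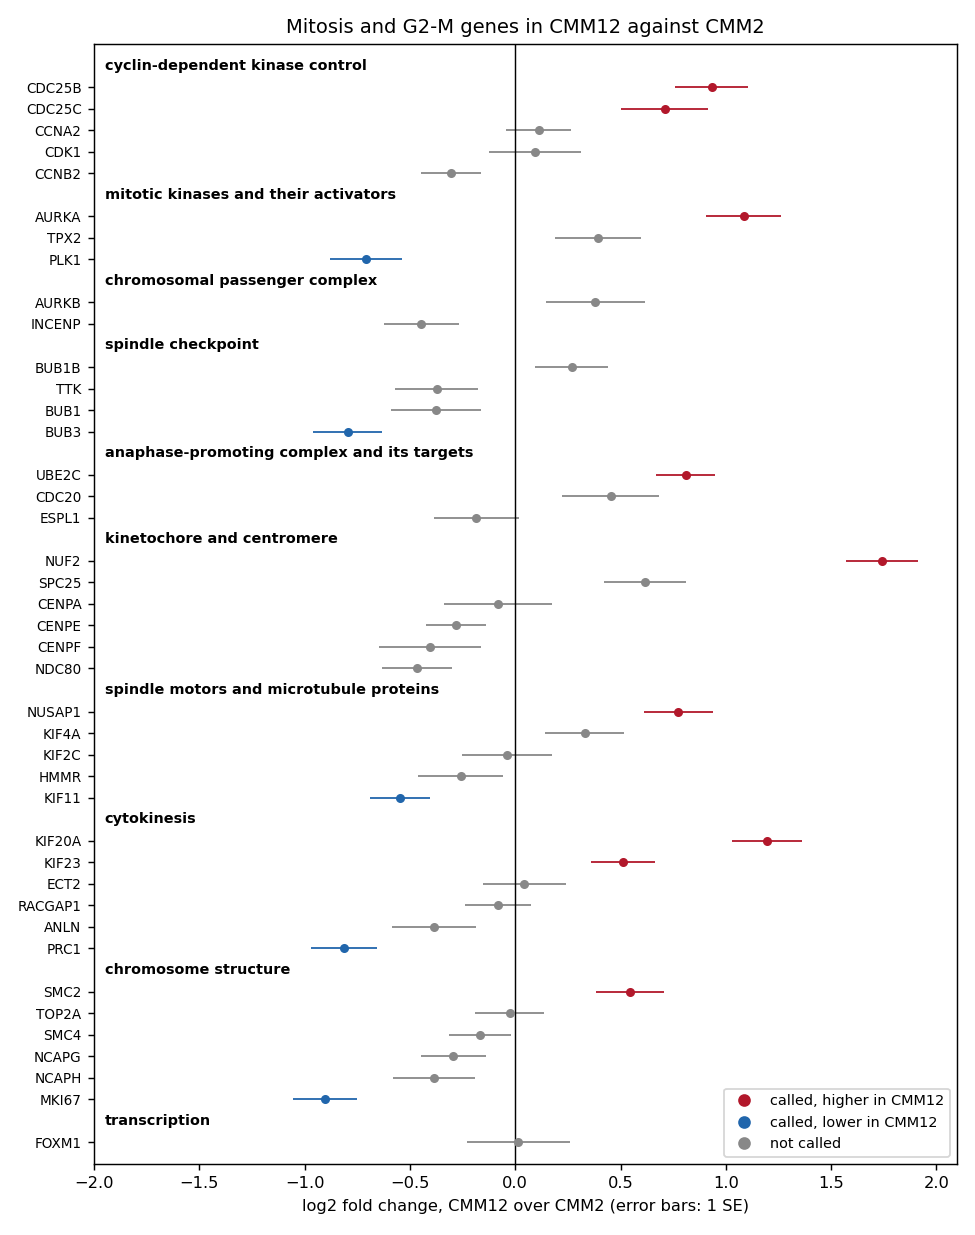
Log2 fold change of CMM12 over CMM2 (x axis, edgeR, bars 1 SE) for the 41 members, grouped by role (y axis). Called genes (adjusted p under 0.05) lie on both sides of 0 within the same role, as with AURKA at 1.08 and PLK1 at −0.71.

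The widest gap was in the outer kinetochore. NUF2 (ENSCAFG00000013259), a subunit of the NDC80 complex that binds spindle microtubules, stood at 238, 216 and 217 CPM in CMM12 KO 1, KO 2 and control and at 69.0, 56.0 and 76.5 CPM in CMM2 KO 1, KO 2 and control. All CMM12 libraries were high, with no overlap, and the log2 fold change was 1.74 (SE 0.17, edgeR adjusted p 0.0011), or 3.34-fold. NDC80 (ENSCAFG00000018395), its direct partner, went the other way in its values, with 70.4, 62.7 and 73.8 CPM in CMM12 KO 1, KO 2 and control and 104, 77.7 and 105 CPM in CMM2 KO 1, KO 2 and control (log2 −0.47, SE 0.17). It was not called (edgeR adjusted p 0.079). SPC25, of the inner arm of the complex, had a log2 fold change of 0.62 (SE 0.19, edgeR adjusted p 0.053, not called). Its partner SPC24, from a wider list of mitosis genes, stood at −0.36 (SE 0.18, edgeR adjusted p 0.190). The other kinetochore members CENPA, CENPE and CENPF lay between −0.41 and −0.08, and none was called.

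Kinases and phosphatases of mitotic entry split as well. AURKA, the Aurora kinase of centrosomes and spindle poles, had 287, 219.6 and 216 CPM in CMM12 KO 1, KO 2 and control, against 114, 106 and 121 CPM in CMM2 KO 1, KO 2 and control. It was higher in CMM12 by 1.08 on the log2 scale (SE 0.18, edgeR adjusted p 0.0059). PLK1, the polo-like kinase that Aurora A activates, was lower in CMM12, with 196, 183 and 254 CPM against 361, 342 and 324 CPM in CMM2 for KO 1, KO 2 and control (log2 −0.71, SE 0.17, edgeR adjusted p 0.022). CDC25B, a phosphatase that starts CDK1 activation, had 166, 229 and 137 CPM in CMM12 and 95.3, 105 and 76.1 CPM in CMM2, in the same order of libraries (log2 0.93, SE 0.17, edgeR adjusted p 0.0092). CDC25C, with 17.6, 18.2 and 14.8 CPM in CMM12 and 11.2, 10.6 and 9.17 CPM in CMM2, was also higher in CMM12, by 0.71 (SE 0.21, edgeR adjusted p 0.042). In each of these 4 genes the lines did not overlap. CDK1, the kinase they activate, had 148, 125 and 105 CPM in CMM12 and 109, 98.2 and 149.9 CPM in CMM2, with overlapping lines. Its log2 fold change was 0.09 (SE 0.22), that of CCNA2 (cyclin A2) 0.11 (SE 0.15) and that of CCNB2 (cyclin B2) −0.31 (SE 0.14), and none was called. FOXM1, the transcription factor of this gene set, had 70.2, 98.9 and 68.1 CPM in CMM12 and 94.1, 56.6 and 83.2 CPM in CMM2 (log2 0.01, SE 0.25), so the lines overlapped.

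Genes of anaphase and cytokinesis differed in both directions. UBE2C had 149.6, 165 and 147 CPM in CMM12 KO 1, KO 2 and control and 87.8, 86.6 and 88.9 CPM in CMM2 KO 1, KO 2 and control (log2 0.81, SE 0.14, edgeR adjusted p 0.0076). KIF20A, a kinesin that carries Aurora B to the central spindle, had 302, 342 and 219 CPM in CMM12 and 128, 125 and 118 CPM in CMM2 (log2 1.19, SE 0.17, edgeR adjusted p 0.0035). KIF23, the motor of centralspindlin, had 345, 313 and 355 CPM in CMM12 and 244, 206 and 262 CPM in CMM2 (log2 0.51, SE 0.15, edgeR adjusted p 0.045). The lines did not overlap in any of them. PRC1, which bundles the microtubules on which these motors work, was lower in CMM12, with 194, 166 and 156 CPM against 287, 299 and 317 CPM in CMM2 (log2 −0.81, SE 0.16, edgeR adjusted p 0.011). ANLN (log2 −0.39, SE 0.20), ECT2 (0.04, SE 0.20) and RACGAP1 (−0.08, SE 0.15) were not called.

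Among spindle and chromosome proteins, NUSAP1, which bundles spindle microtubules near chromosomes, was higher in CMM12 by 0.77 (SE 0.16, edgeR adjusted p 0.015). The condensin ATPase SMC2 had 265, 316 and 267 CPM in CMM12 KO 1, KO 2 and control and 195, 175 and 212 CPM in CMM2 KO 1, KO 2 and control (log2 0.55, SE 0.16, edgeR adjusted p 0.045). KIF11, the kinesin that separates spindle poles, was lower in CMM12, with 263, 235 and 269 CPM against 373, 366 and 382 CPM in CMM2 (log2 −0.55, SE 0.14, edgeR adjusted p 0.030). CMM12 was thus high for SMC2 and low for KIF11 in all libraries. MKI67, which encodes the proliferation marker Ki-67 that coats mitotic chromosomes, had 371, 318 and 308 CPM in CMM12 KO 1, KO 2 and control and 608, 651 and 605 CPM in CMM2 KO 1, KO 2 and control. All CMM12 libraries were low, at 1.87-fold less (log2 −0.90, SE 0.15, edgeR adjusted p 0.0063). TOP2A did not separate the lines, with 971, 849 and 841 CPM in CMM12 and 827, 852 and 1046 CPM in CMM2 (log2 −0.03, SE 0.16). Of the checkpoint genes BUB3 was lower in CMM12, with 84.0, 66.8 and 63.8 CPM against 124, 119.8 and 127 CPM in CMM2 (log2 −0.80, SE 0.16, edgeR adjusted p 0.013), while BUB1, BUB1B (BUBR1) and TTK were not called. BUB1, a kinase of the checkpoint, overlapped between the lines, with 173, 106 and 129 CPM in CMM12 and 166, 163 and 202 CPM in CMM2 (log2 −0.38, SE 0.21).

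**Figure D2:**
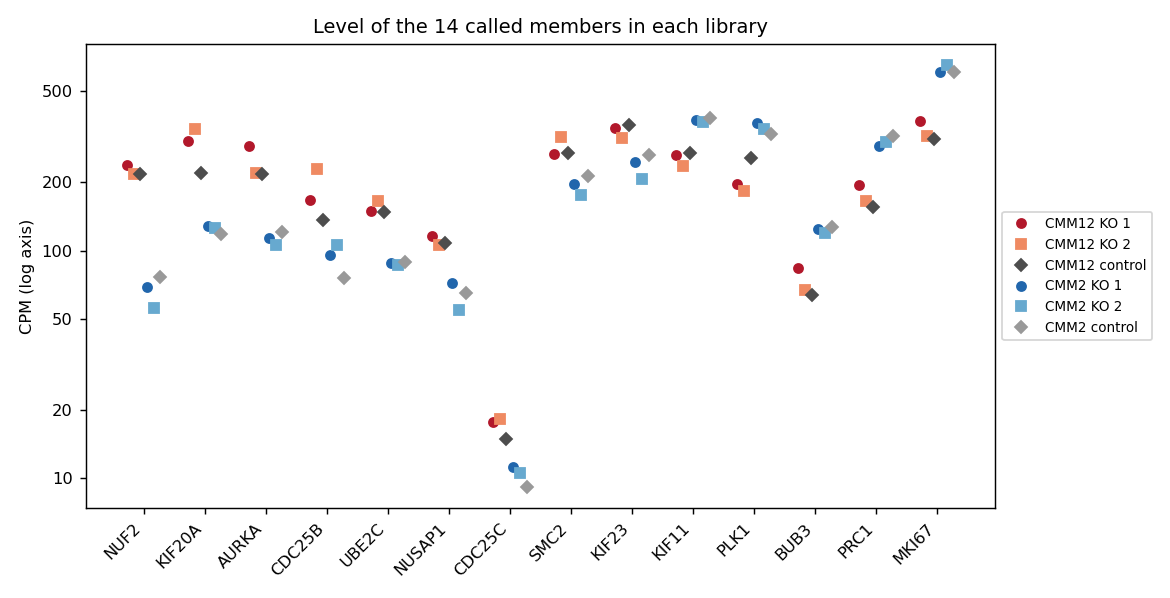
Level in CPM (log axis) of the 14 members called between the lines (x axis), 1 point per library. For each gene the 3 CMM12 points do not overlap the 3 CMM2 points, and NUF2 shows the widest gap.

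Of the 14 members, 5 kept their call in all 6 fits that left out 1 library, namely NUF2, KIF20A, AURKA, UBE2C and MKI67. The count fell to 8 without CMM12 KO 2 and to 7 without the CMM12 control, CMM2 KO 1 or the CMM2 control, where 12.3% to 14.2% of all genes tested were called. All 14 kept their direction in the 16 alternatives run for each. On log2(TPM + 1) the median of all genes moved by 0.11 towards CMM12, and 68.2% of all calls were higher in CMM12, against 56.5% in counts. Limma called 10 members higher and 4 lower there, beside 16.3% and 7.59% of all genes, and CENPA, RACGAP1, KIF2C and TOP2A, none of them called, turned direction.

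Because both members of a ratio are read in 1 library, ratios of partner transcripts do not depend on scaling between libraries. NUF2 over NDC80, in TPM, was 4.65, 4.73 and 4.05 in CMM12 KO 1, KO 2 and control and 0.915, 0.993 and 1.01 in CMM2 KO 1, KO 2 and control. The pair was thus about equal per length in CMM2 and unequal in CMM12. KIF20A over PRC1 was 1.32, 1.74 and 1.20 in CMM12 and 0.376, 0.356 and 0.313 in CMM2. SMC2 over SMC4, the paired ATPases of condensin, was 0.655, 0.797 and 0.727 in CMM12 and 0.433, 0.418 and 0.460 in CMM2. The other condensin pair, NCAPG over NCAPH, overlapped between lines, at 2.20, 3.16 and 2.52 in CMM12 and 2.24, 2.42 and 2.62 in CMM2. Within the chromosomal passenger complex, AURKB over INCENP was 0.866, 0.957 and 0.696 in CMM12 and 0.459, 0.430 and 0.519 in CMM2, although neither gene was called alone. These ratios were chosen after the levels had been seen and carry no test.

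**Figure D3:**
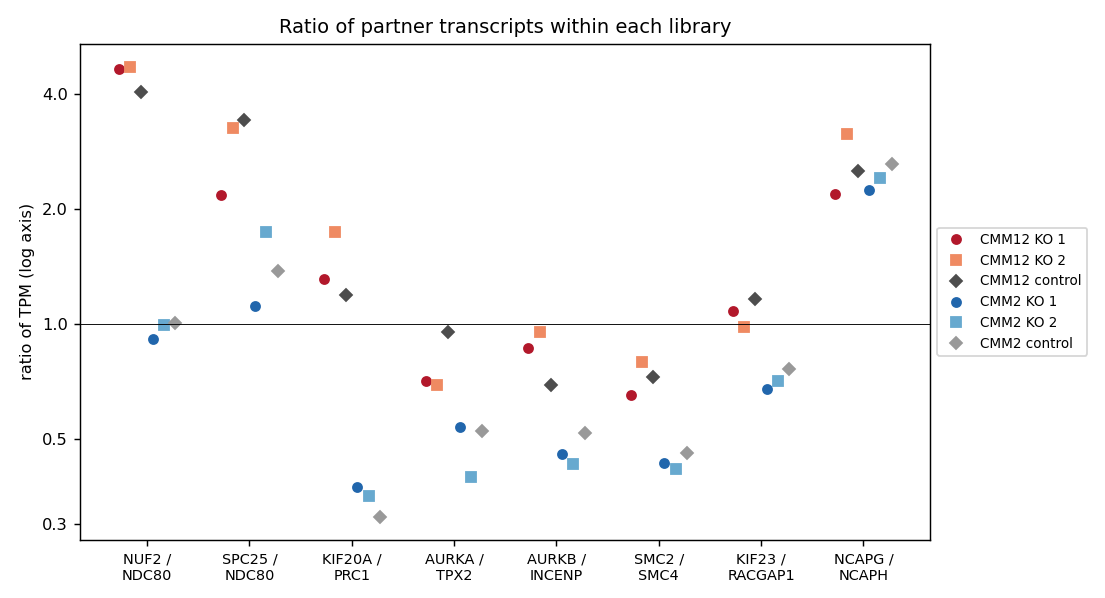
Ratio of TPM of 2 partner transcripts (y axis, log scale) in each library, for 8 pairs (x axis). The CMM12 points lie above the CMM2 points for NUF2 over NDC80 (4.05 to 4.73 against 0.915 to 1.01) and overlap them for NCAPG over NCAPH.

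The wider list of mitosis genes held 125 others, of which 119 were listed and tested. The comparison of lines called 7 higher and 25 lower in CMM12, where it called 14.6% and 11.2% of all genes, with a median log2 fold change of −0.09 in the list. The 4 with the smallest p were TRIP13, a checkpoint ATPase (1.33, SE 0.15), WEE1, the kinase that inhibits CDK1 (1.11, SE 0.15), the centromere gene CENPH (−1.69, SE 0.23) and the kinesin KIF20B (−1.06, SE 0.17), with edgeR adjusted p of 0.0017, 0.0031, 0.0033 and 0.0056. WEE1 and the phosphatases CDC25B and CDC25C, which act on CDK1 in opposite directions, were thus all higher in CMM12. Other genes that control CDK1 did not follow. PKMYT1 had 29.2, 25.3 and 32.4 CPM in CMM12 KO 1, KO 2 and control. In CMM2 it was higher without overlap, at 61.6, 54.9 and 53.0 CPM. CDC25A overlapped between the lines, with 44.3, 48.6 and 39.5 CPM in CMM12 and 41.4, 26.5 and 57.9 CPM in CMM2. Replication and G1-S genes, 42 tested, had 1 called higher and 11 lower in CMM12 (median −0.39), beside the same shares over all genes. The geometric mean of the mitotic members was 83.5, 84.1 and 78.9 TPM in CMM12 KO 1, KO 2 and control and 72.2, 67.7 and 73.7 TPM in CMM2 KO 1, KO 2 and control. That of the replication genes was 57.8, 56.0 and 55.8 TPM in CMM12 and 71.5, 53.8 and 71.2 TPM in CMM2. In TPM the lines did not overlap in the mitotic mean, but the median of all genes is itself shifted towards CMM12 on that scale. In counts the member median was −0.04, with 22 of 41 members lower in CMM12. A median is another summary than a geometric mean. The member median on log2(TPM + 1), given further below, was itself positive, so its sign differed between counts and TPM. The means were not tested.

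In the RefSeq annotation of another build, UU_Cfam_GSD_1.0, 20 of the 41 members overlap another annotated gene, 6 of the 14 called ones among them. KIF20A overlaps CDC23, a subunit of the anaphase-promoting complex, and BRD8. CDC23 was also higher in CMM12, with 172, 150.0 and 118 CPM in CMM12 KO 1, KO 2 and control and 53.5, 45.5 and 74.3 CPM in CMM2 KO 1, KO 2 and control (log2 1.36, SE 0.24, edgeR adjusted p 0.0078). Overlap here is of whole gene spans, and overlap of exons was not examined. Whether counting used strand is unknown from the labels, and the part of shared reads in these levels was not tested. NUF2, UBE2C and MKI67 overlap no other gene there, and AURKA overlaps CSTF1.

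Podoplanin KO was compared with control to ask whether its loss moves the mitotic genes. Across both lines, with the line as a block, edgeR's quasi-likelihood test called 0 of 41 members, and 0% of all genes (1 member and 495 of all genes had an unadjusted p under 0.05). DESeq2 and limma on log2(TPM + 1) called 0 members too, beside 0.0733% and 0.0244% of all genes. The median log2 fold change of the members was 0.01, with 22 higher and 19 lower, beside 0.01 over all genes, and their range was −0.35 to 0.46. The median SE of a member was 0.19.

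CDC25B had the smallest p of the members across lines. It stood at 166 and 229 CPM in CMM12 KO 1 and 2, against 137 CPM in the CMM12 control. In CMM2 it stood at 95.3 and 105 CPM in KO 1 and 2, against 76.1 CPM in the control. These are the levels behind the largest log2 fold change of the members. All 4 KO libraries were above their control, with a log2 fold change of 0.46 (SE 0.19, unadjusted edgeR p 0.039 and adjusted p 0.987), so it was not called. CDC25C, KIF20A and MKI67 also lay above their control in all 4 KO libraries, and CCNB2, NDC80, SPC25, KIF11 and KIF23 lay below in all 4. Over all genes 10.5% lay above and 10.6% below in this way, so 4 and 5 of 41 members were close to the background. SPC25 had 39.8 and 53.6 CPM in CMM12 KO 1 and 2, against 65.8 CPM in the control, and 30.2 and 35.1 CPM in CMM2 KO 1 and 2, against 37.2 CPM in the control (log2 −0.35, SE 0.20). KIF4A, a chromosome-bound kinesin, had 173 and 158 CPM in CMM12 KO 1 and 2, against 137 CPM in the control, and 106 and 159.9 CPM in CMM2 KO 1 and 2, against 106 CPM in the control (log2 0.30, SE 0.20). For KIF4A, CMM2 KO 2 was the high library of its line.

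Taken by line, the members leaned in opposite directions. In CMM12, 31 of 41 members were higher in KO 1 and 27 in KO 2 than in the control, with median log2 differences of 0.23 and 0.067. In CMM2, 15 were higher in KO 1 and 10 in KO 2, with medians of −0.031 and −0.23. Over all genes tested the medians were 0.00 to 0.01, and 50.3%, 50.7%, 48.5% and 47.5% of genes were higher in these libraries, in the same order. These are values of 1 library against 1, on log2(CPM + 1), without a test. Both CMM12 KO libraries were above their control in 25 members and both below in 8 (35.6% and 34.2% of all genes). Both CMM2 KO libraries were above in 6 and below in 22 (30.1% and 30.9% of all genes). The KO libraries of 1 line share their control, so their agreement is in part that of the control.

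**Figure D4:**
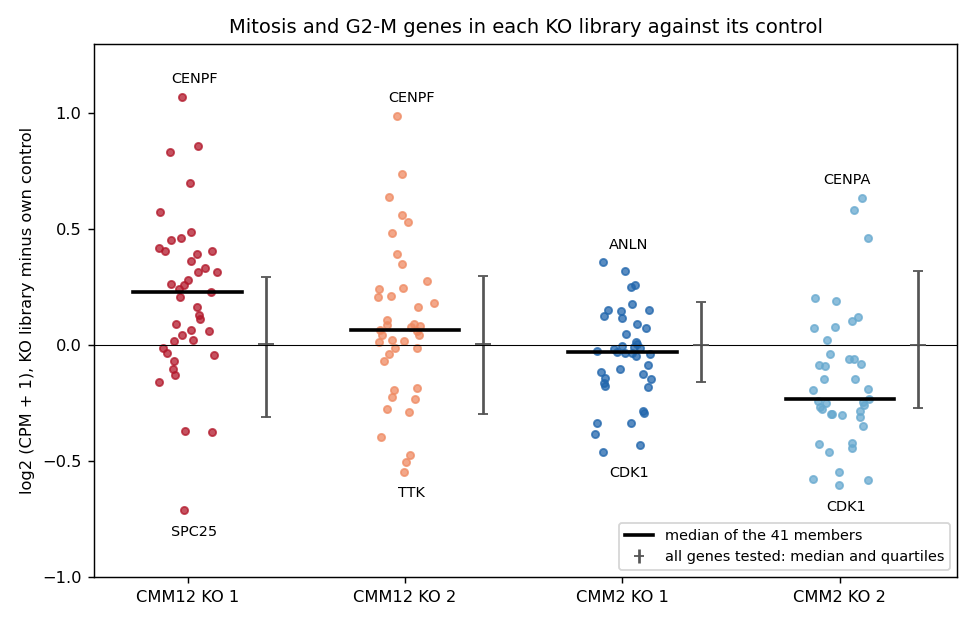
Difference of log2(CPM + 1) between each KO library (x axis) and the control of its line, 1 point per member, with the member median (black line) and the median and quartiles of all genes tested (grey). The medians are 0.23 and 0.067 in CMM12 and −0.031 and −0.23 in CMM2, and the member farthest up and down is named.

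In CMM12, CENPF (ENSCAFG00000012593), a large kinetochore and nuclear matrix protein, had 235 and 222 CPM in KO 1 and 2, against 111 CPM in the control. Its CMM2 levels were 248 and 222 CPM in KO 1 and 2 and 246 CPM in the control, so the CMM12 control was the low library of the 6. The log2 fold change of KO over control in CMM12 was 1.04 (SE 0.25, edgeR adjusted p 0.697, unadjusted 0.0048). DESeq2 called it (adjusted p 0.016), 1 of 41 members, where it called 0.367% of all genes, and limma on log2(TPM + 1) did not (log2 0.60, adjusted p 0.725). In TPM, CENPF had 53.5 and 51.2 in CMM12 KO 1 and 2, against 34.2 in the control, a smaller gap than in counts. edgeR called 0 members in CMM12 with 1 at an unadjusted p under 0.05, and 0.00815% of all genes. The lone CMM12 control has no replicate, so its own spread was taken from the KO pairs.

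The next members by p in CMM12 were KIF20A, TPX2, AURKB, CDC20 and CDC25B. TPX2, which activates Aurora A at the spindle, had 737 and 577 CPM in KO 1 and 2, against 413 CPM in the control (log2 0.67, SE 0.29, edgeR adjusted p 0.833). Its CMM2 levels were 385 and 484 CPM in KO 1 and 2 and 420.3 CPM in the control, one on each side of it. CDC20 had 689 and 499 CPM in KO 1 and 2, against 379 CPM in the control (log2 0.65, SE 0.34, edgeR adjusted p 0.852). AURKB, the kinase of the passenger complex, had 111 and 109.7 CPM in KO 1 and 2, against 74.0 CPM in the control (log2 0.58, SE 0.30, edgeR adjusted p 0.852), and 82.4 and 56.5 CPM in CMM2 KO 1 and 2, against 85.1 CPM in the control. In all of these both CMM12 KO libraries were above the control, and none was called. The farthest down were SPC25 in KO 1, at 60.5% of the control, and TTK in KO 2, with 34.7 CPM against 51.2 CPM in the control. PLK1 was below the control in both, with 196 and 183 CPM against 254 CPM (log2 −0.42, SE 0.23, edgeR adjusted p 0.852).

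In CMM2 no member was called by edgeR (0 at an unadjusted p under 0.05, and 0% of all genes called), by DESeq2 (0.0489% of all genes) or by limma (0% of all genes). CDK1 was the member farthest down in both KO lines, with 109 and 98.2 CPM in KO 1 and 2, against 149.9 CPM in the control (log2 −0.54, SE 0.24, edgeR adjusted p 1). HMMR, a spindle and hyaluronan-binding protein, had 87.5 and 85.4 CPM in KO 1 and 2, against 118 CPM in the control (log2 −0.45, SE 0.24). TOP2A had 827 and 852 CPM against 1046 CPM (log2 −0.32, SE 0.24) and NCAPG, a condensin subunit, 397 and 425 CPM against 518 CPM (log2 −0.33, SE 0.23). The control was the highest of the 3 CMM2 libraries in each of these. The farthest up were ANLN in KO 1, with 1058 CPM against 825 CPM in the control, and CENPA, the centromeric histone, in KO 2, with 37.7 CPM against 23.9 CPM. In CMM12, ANLN had 751 and 622 CPM in KO 1 and 2, against 604 CPM in the control, and CENPA 30.3 and 24.4 CPM, against 23.3 CPM. In CMM2, ANLN was on the other side of the control in KO 2, at 697 CPM, and CENPA in KO 1, at 21.2 CPM.

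The difference between the KO effects, CMM12 minus CMM2, was tested for each gene. edgeR called 0 members, with 2 at an unadjusted p under 0.05 and 0% of all genes called, and DESeq2 and limma called 0 members (0.179% and 0% of all genes). The median difference over members was 0.23, with 33 above 0, beside −0.01 over all genes. It was widest for CENPF (1.10, SE 0.34, unadjusted edgeR p 0.015, adjusted p 1.00) and CDK1 (0.91, SE 0.35, unadjusted edgeR p 0.036, adjusted p 1.00). For PLK1 it was −0.54 (SE 0.33). For KIF2C, a kinesin that depolymerises microtubules, it was 0.70 (SE 0.41), with 64.5 and 50.5 CPM in CMM12 KO 1 and 2, against 39.4 CPM in the control, and 55.1 and 45.5 CPM in CMM2 KO 1 and 2, against 56.1 CPM in the control. In 11 of 41 members (26.8%) both CMM12 KO libraries were above and both CMM2 KO libraries below their control. These 11 were CDK1, CCNA2, AURKA, AURKB, BUB3, UBE2C, KIF2C, HMMR, PRC1, TOP2A and SMC4. Of all genes, 11% had that pattern. PLK1 and CENPE had the opposite pattern, which 10.2% of all genes had. Across the 41 members the KO effects in the 2 lines, which have separate controls, had a Pearson r of 0.15 and a Spearman rho of 0.20. All are 41 genes of the same 6 libraries, so these are descriptions.

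**Figure D5:**
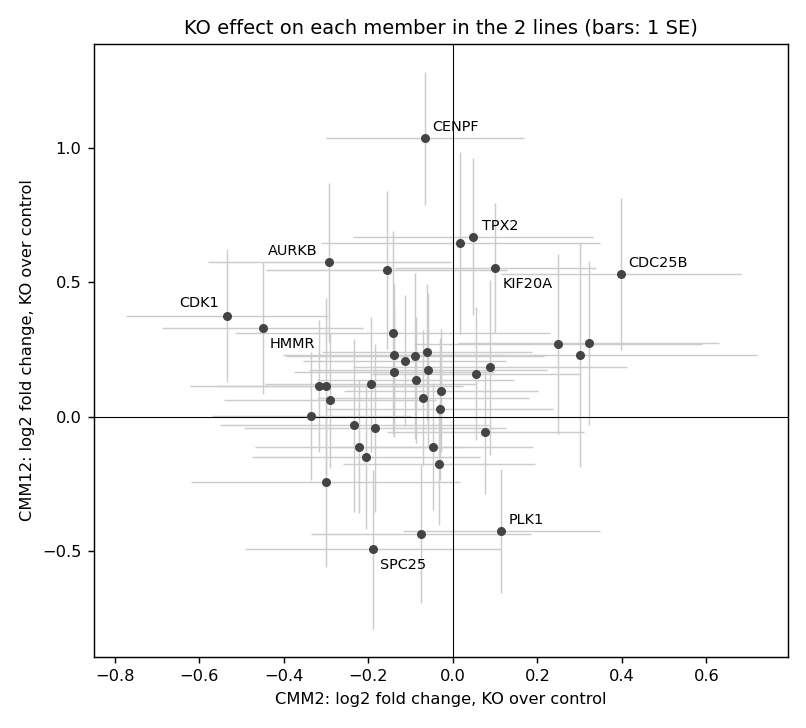
Log2 fold change of KO over control in CMM12 (y axis) against CMM2 (x axis) for the 41 members, bars 1 SE (edgeR). CENPF lies at 1.04 in CMM12 and −0.066 in CMM2, and CDC25B is above 0 in both lines (0.53 in CMM12 and 0.40 in CMM2).

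KO number 2 was set against number 1 across lines to see how far the KO lines of a pair differ. The labels do not say what the number marks. edgeR called 0 members (0 at an unadjusted p under 0.05, 0% of all genes called), and DESeq2 and limma called 0 (0.22% and 0% of all genes). In 33 of 41 members the fold change was below 0, with a median of −0.09 beside 0.01 over all genes. ANLN had the smallest p (log2 −0.43, SE 0.19, unadjusted edgeR p 0.060), with 622 CPM in CMM12 KO 2 and 751 in CMM12 KO 1, and 697 in CMM2 KO 2 beside 1058 in CMM2 KO 1. For TTK the values were 34.7 CPM in CMM12 KO 2 and 51.8 in CMM12 KO 1, and 50.6 CPM in CMM2 KO 2 and 60.0 in CMM2 KO 1 (log2 −0.41, SE 0.21). For CDC20 they were 499 CPM in CMM12 KO 2 and 689 in CMM12 KO 1, and 309.7 CPM in CMM2 KO 2 and 441 in CMM2 KO 1, with 371 CPM in the CMM2 control (log2 −0.49, SE 0.23). KO 2 was the lower of the pair in both lines for each of these 3 genes. INCENP, which anchors Aurora B, had 277 CPM in CMM12 KO 2 and 313 in CMM12 KO 1, and 322 CPM in CMM2 KO 2 and 440.0 in CMM2 KO 1 (log2 −0.31, SE 0.19). CMM2 KO 2 was the lowest of the 6 libraries for 14 members, and the CMM2 control the highest for 13. The same counts over all genes were not made. The lean towards lower values in KO 2 was also present in 39 of 42 replication genes and 88 of 119 other mitosis genes. Of all 12270 genes tested, 6030 had a fold change below 0.

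Other lists were read beside the members. In CMM2 KO 2 the replication genes had a median log2 difference from the control of −0.46, with 39 of 42 lower, beside −0.23 for the mitotic members. In the other KO libraries the replication medians were 0.16 and 0.07 in CMM12 KO 1 and 2 and −0.0026 in CMM2 KO 1. Of 9 tested genes that brake the cell cycle, the kinase inhibitor genes CDKN1A, CDKN1B, CDKN2C and CDKN2D lay above their control in all 4 KO libraries. CDKN2C (p18) had 60.2 and 66.9 CPM in the CMM12 KO lines, against 39.5 CPM in the control, and 53.0 and 53.5 CPM in the CMM2 KO lines, against 34.2 CPM in the control. Across lines it had a log2 fold change of 0.66 (SE 0.17, unadjusted edgeR p 0.0049, adjusted p 0.987), and was not called. CDKN1A (p21) was called by DESeq2 in CMM12 (log2 2.31, SE 0.34 by edgeR, DESeq2 adjusted p 2.8e-04), with edgeR adjusted p 0.410. Their part in the levels of the mitotic genes was not tested. Of the wider mitosis list, edgeR called 0 of 119 in each KO comparison. ANAPC1, a scaffold of the anaphase-promoting complex, had the smallest p in CMM12, with 97.2 and 78.9 CPM in KO 1 and 2, against 169 CPM in the control (log2 −0.94, SE 0.25, unadjusted edgeR p 0.0076).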

How the data were processed

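Expected counts per gene, unscaled between libraries, and TPM values, scaled for length within each library, were deposited by the authors for 6 libraries, per the file headers. The submitters' processing notes list CanFam3.1 as the build, with the tools RSEM 1.3.3 and STAR 2.7.3a. Counts were rounded (3.22% to 3.63% of values in a library). The main test was edgeR 4.0.16 (glmQLFit, glmQLFTest, TMM, filterByExpr on 4 groups, Benjamini-Hochberg adjustment over 12270 genes) in R 4.3.3. The SE is the log2 fold change divided by the square root of its F statistic, without sign. KO across lines and CMM12 against CMM2 came from additive terms of line and genotype (3 residual degrees of freedom), KO within a line and the difference of effects from 4 group means (2), and KO numbers from line and number. Each lone control is assumed to vary like the KO pairs. Alternatives were DESeq2 1.42.0, limma 3.58.1 on log2(TPM + 1), which understates changes of low genes, other factors and filters, and fits without each library. The code was tested on simulated data. Libraries of a line differed by more than sampling noise, with a chi-square of 13.4 to 54.6 per degree of freedom.

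The members, gene lists, alternatives and comparisons were chosen with earlier results of these data known. Values in every library are given for a set of core members chosen by role, for the members with the smallest p in each comparison and for those farthest from their control, and other members named were chosen after their values were seen. Counts and floors carry counting error only. Sequences and coordinates were not used here.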

Additional observations from a re-analysis of the deposited data

Results flagged for a closer look

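The median log2 difference of the 41 mitotic members from the control of their line was above 0 in both CMM12 KO libraries (0.23 in KO 1 and 0.067 in KO 2) and below 0 in both CMM2 KO libraries (−0.031 in KO 1 and −0.23 in KO 2). It was picked out because its sign agreed between the KO libraries of a line and differed between the lines. In CMM2 KO 1 it was small, with 15 members higher and 26 lower. The difference between the medians was not tested. The direction was the same in all 4 libraries with median-of-ratios factors, with library totals, with a pseudocount of 0.1 CPM and on log2(TPM + 1). Gene by gene, 11 of the 41 members (26.8%) showed this pattern in all 4 KO libraries, beside 11% of all genes tested. The edgeR test of the difference called none of the 41. The pattern was not particular to the members, since 13 of 42 replication genes (31.0%) and 29 of 119 other mitosis genes (24.4%) showed it too. The median difference between the KO effects was 0.35 in the replication list and 0.20 in the other mitosis list, beside 0.23 in the members.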

How the results depend on the processing

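The 14 members called between CMM12 and CMM2 numbered 12 to 15 under the other tests, factors and filters, and 7 to 14 without 1 library. Over all genes tested, 14.6% to 32.2% were called under the other tests, factors and filters. With the 4 KO libraries alone 7 members were called, beside 16.4% of all genes tested. The count without a library comes from fewer samples. The median log2 difference of the members between lines, −0.04, ran from −0.18 to 0.12 without 1 library, and was 0.088 on log2(TPM + 1) and 0.13 with the 4 KO libraries alone, so its sign is not settled. With 1 member called in CMM12, DESeq2 differed there from the count of 0 by edgeR. The other KO comparisons had 0 members called in every alternative run. CENPF across lines ranged from −0.066 to 1.04 without 1 library, and the value of −0.066, without the CMM12 control, is its effect in CMM2 alone. Without a line's only control the effect in that line and the difference of effects could not be fitted. The number was not taken as a pairing, since the labels do not say that it marks a shared guide or batch. Between the 2 lines, same-numbered KO libraries correlated at 0.06 over all genes tested in their deviations from group means, and at −0.16 over members. With the number as a replicate block 12 members were called between lines, beside 24.1% of all genes, and 0 across KO and control. The median difference of the members between lines was then −0.04. The smallest depth behind a member was 96 counts in a library (CDC25C).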
